A study of Mus musculus with 3 samples.

Results

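The subunit genes of the mitochondrial respiratory chain and ATP synthase were read in mouse long-term haematopoietic stem cells after gamma irradiation. Members were the genes of the deposited array table whose symbol begins with Nduf and a subunit letter and number, Sdh a to d, Uqcr, Cox4 to Cox8 or Atp5, leaving out 3 pseudogenes. This gave 74 genes of the 23185 with a symbol, on 25206 probe sets in all. By symbol, 34 belong to complex I, 4 to complex II, 7 to complex III, 17 to complex IV and 12 to complex V.

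The cells were sorted from mouse bone marrow as Lin- ckit+ Sca+ Flk2- CD48- CD150+, kept overnight in Stemspan SFEM medium and irradiated outside the animal. The 3 groups are unirradiated cells (0 Gy), cells given 0.02 Gy and cells given 2.5 Gy, all with RNA taken 2 hours after exposure, and each group is 1 array. The labels give no strain, age, sex or pool size. With 1 array per dose there is no replicate spread and no test. Every difference below compares 2 arrays, not 2 conditions with their error, and 1 array per dose sets how precise it can be.

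The respiratory chain passes electrons from NADH and succinate to oxygen. Complex I (NADH dehydrogenase) and complex II (succinate dehydrogenase) feed ubiquinone, complex III (cytochrome bc1) hands the electrons to cytochrome c, and complex IV (cytochrome c oxidase) reduces oxygen. Complexes I, III and IV pump protons, and complex V (ATP synthase) uses the gradient to make ATP. Quiescent haematopoietic stem cells are known for relying mainly on glycolysis, and they switch towards oxidative phosphorylation when they are activated.

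The sort was read from genes of its markers. All 9 stem cell markers with a symbol were past the level minimum used below. Kit, the stem cell factor receptor, was at 8.58, 8.78 and 8.50 on the unirradiated, 0.02 Gy and 2.5 Gy arrays (log2 signal). Slamf1, which encodes CD150, was at 5.24, 4.75 and 4.84, a difference from unirradiated of −0.49 at 0.02 Gy and −0.40 at 2.5 Gy. Cd48, selected against in the sort, was at 3.62, 3.31 and 3.40, below the minimum on every array. Flt3, which encodes Flk2 and was selected against too, was at 4.60, 4.95 and 4.93, past the minimum on every array and 0.33 higher on the 2.5 Gy array and 0.35 higher on the 0.02 Gy array than unirradiated. Array medians over genes with a symbol were 4.59, 4.53 and 4.55, so the arrays were close to each other at the middle of the signal range. They were less alike among genes of high signal, as given below.

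Values are log2 signals as deposited, and a difference of 1 is 2-fold. A gene was counted where its mean over the 3 arrays was at least 4.55, the median of all genes with a symbol, which 11593 genes passed. Of the 74 members, 66 passed and 8 did not. On every one of the 3 arrays, 63 members were at or above it. The exceptions were Ndufa11, which was at 4.40 on the 0.02 Gy array, Ndufs1, at 4.44 on the 2.5 Gy array, and Cox4i2, at 4.548 on the unirradiated array. Signals of different probe sets are not compared with each other, since each probe set has its own response.

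Promoters of members are shown first for the 4 genes past the minimum that were at least 2-fold apart between any 2 arrays. Cox6a1 is added as an example of a window that holds motifs of 2 regulators of respiratory genes. Windows of Atp5k, Sdhb, Uqcr11 and Atp5j also hold motifs of 2 regulators and are not shown. NRF1, GABPA (an ETS factor) and YY1 are transcription factors known to act on many nuclear genes for respiratory subunits. The sequences are from RefSeq (GRCm38.p6), from 250 bases before to 50 bases after a gene start, written 5′ to 3′ on the gene's strand. Capitals mark the NRF1 core GCATGCGC, the ETS core CCGGAAG or the YY1 motif AAGATGGC, on either strand. The windows are Ndufa7, chr17:33824322-33824621, plus strand; Ndufa10, chr1:92473709-92474008, minus strand; Ndufa1, chrX:37191189-37191488, minus strand; Ndufs3, chr2:90904672-90904971, minus strand; and Cox6a1, chr5:115348909-115349208, minus strand. Ndufa7 has a further window in the table that overlaps the one shown.
Ndufa7: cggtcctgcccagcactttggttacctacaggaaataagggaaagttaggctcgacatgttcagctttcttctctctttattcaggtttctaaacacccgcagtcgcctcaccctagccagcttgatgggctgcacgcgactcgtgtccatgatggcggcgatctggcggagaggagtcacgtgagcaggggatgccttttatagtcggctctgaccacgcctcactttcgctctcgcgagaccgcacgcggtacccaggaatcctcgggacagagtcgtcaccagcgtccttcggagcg
Ndufa10: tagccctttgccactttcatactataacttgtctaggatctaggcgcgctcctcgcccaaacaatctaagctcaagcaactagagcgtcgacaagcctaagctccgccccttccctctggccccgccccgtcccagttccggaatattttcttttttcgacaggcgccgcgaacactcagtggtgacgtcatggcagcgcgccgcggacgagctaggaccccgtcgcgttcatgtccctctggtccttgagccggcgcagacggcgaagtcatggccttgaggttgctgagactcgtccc
Ndufa1: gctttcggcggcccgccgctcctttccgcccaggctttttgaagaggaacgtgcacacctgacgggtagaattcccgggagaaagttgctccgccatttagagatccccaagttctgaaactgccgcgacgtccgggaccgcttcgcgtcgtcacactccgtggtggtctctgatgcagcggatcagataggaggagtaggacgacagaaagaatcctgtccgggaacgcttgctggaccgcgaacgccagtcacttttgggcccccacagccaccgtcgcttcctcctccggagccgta
Ndufs3: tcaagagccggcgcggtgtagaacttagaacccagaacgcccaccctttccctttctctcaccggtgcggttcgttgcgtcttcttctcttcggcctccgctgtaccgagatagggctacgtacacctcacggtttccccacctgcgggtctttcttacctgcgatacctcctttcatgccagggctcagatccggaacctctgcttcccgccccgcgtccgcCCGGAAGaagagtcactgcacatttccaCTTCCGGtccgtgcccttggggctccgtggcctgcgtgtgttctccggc
Cox6a1: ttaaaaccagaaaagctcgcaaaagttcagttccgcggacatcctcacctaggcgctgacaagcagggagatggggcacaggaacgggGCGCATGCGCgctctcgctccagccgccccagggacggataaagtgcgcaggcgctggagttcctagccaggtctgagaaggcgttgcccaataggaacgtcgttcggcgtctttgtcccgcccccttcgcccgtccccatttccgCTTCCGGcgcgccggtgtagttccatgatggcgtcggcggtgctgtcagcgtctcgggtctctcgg

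Ndufs3 held 2 ETS cores, and Cox6a1 held 1 ETS core and a palindrome that contains the NRF1 core on both strands. No match to any of the 3 motifs was in the windows of Ndufa7, Ndufa10 or Ndufa1, which says only that these letters are not there. A promoter window was in the table for 60 of the 74 members, with 2 windows each for 5 of them. The NRF1 core was in the windows of 8 of these 60 genes (13.3%), against 3.05% of all 27025 genes in the table and 5.17% of the genes past the level minimum. The ETS core was in 15 (25%), against 9.93% and 17.9%. The longer GABPA motif CCGGAAGT, which contains the ETS core, was in 4 (6.67%), against 4.31% and 7.95%. The YY1 motif was in 9 (15.0%), against 3.19% and 4.68%. Any of the 3 motifs marked by capitals was in 27 of the 60, against 14.9% of all genes and 25.3% of those past the minimum.

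Among the 54 members past the minimum with a window, the median difference of 2.5 Gy minus unirradiated was 0.12 for the 8 with an NRF1 core and 0.12 for the 46 without. For 0.02 Gy minus unirradiated it was −0.03 with the core and 0.24 without. With the ETS core the 2.5 Gy median was 0.15 (15 genes), and without it 0.10 (39 genes), and the 0.02 Gy medians were 0.19 with and 0.24 without. With the YY1 motif the 2.5 Gy median was 0.07 (9 genes), and without it 0.13 (45 genes), and the 0.02 Gy medians were 0.26 with and 0.19 without. These are descriptions of few genes on single arrays, and no order by motif is read from them.

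The first comparison asked what the subunit genes did 2 hours after 2.5 Gy. As a set they differed little. Of the 66 members, 46 were above 0 in 2.5 Gy minus unirradiated (69.7%) and 20 below, against 53.4% above 0 among all genes and 64.4% among genes weighted to the members' deciles of signal, with a median difference of 0.14, a 1.10-fold difference. The median of all genes past the minimum was 0.02. The median of members turned to −0.01 after quantile normalization and −0.02 after loess of each array over signal level. Genes of high signal were higher on both irradiated arrays: in the top decile of signal the median of all genes was 0.15 at 2.5 Gy and 0.21 at 0.02 Gy, and 38 of the 66 members lay in that decile. After subtracting the median of all genes in the same decile of signal, the median of members was 0.01 at 2.5 Gy.

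**Figure D1:**
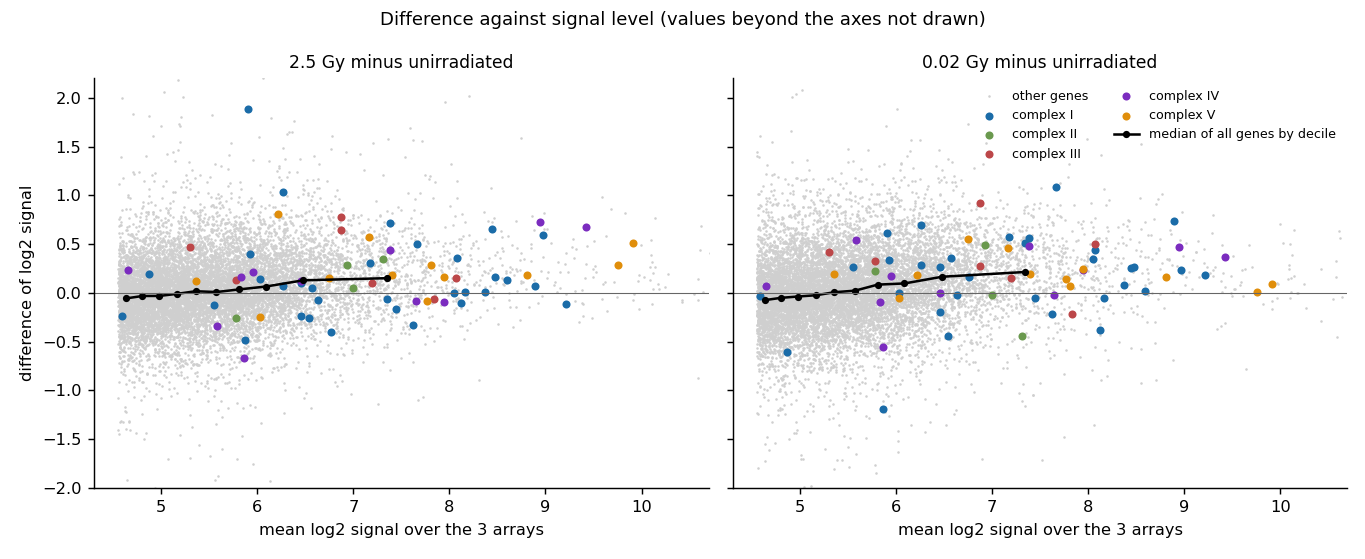
Difference of log2 signal from the unirradiated array (y axis) against mean log2 signal over the 3 arrays (x axis), for 2.5 Gy (left) and 0.02 Gy (right). Grey points are other genes past the level minimum, coloured points the 66 members by complex, and the black line joins the medians of all genes per decile of signal. The line reaches 0.15 (left) and 0.21 (right) in the top decile, where 38 members lie, and members scatter on both sides of it.

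At least 1.5-fold higher at 2.5 Gy were 10 of the 66 members (15.2%), against 6.07% of all genes past the minimum and 9.54% of genes weighted to the members' deciles of signal. At least 1.5-fold lower was 1 member, against 3.44% of all genes. At least 2-fold higher were 2 members, against 1.15% of all genes, and 0 were at least 2-fold lower, against 0.578%. In either direction 11 were 1.5-fold apart (16.7%), against 9.51% of all genes, and 2 were 2-fold apart, against 1.73%. The count of 10 became 4 (6.06%) after quantile normalization, against 5.0% of all genes, and 4 after loess, against 4.87%. The shares after quantile normalization and loess are near those of all genes. As deposited, 15.2% was above both the 6.07% of all genes and the 9.54% of genes weighted by signal. On the same arrays the 9 granulocyte and monocyte markers had a summed linear signal of 394, 622 and 689 (unirradiated, 0.02 Gy, 2.5 Gy), with 8 of 9 past the minimum. The 9 stem cell markers summed to 971, 1170 and 1018, and the 5 megakaryocyte markers to 825, 953 and 1038. The 6 T and NK cell markers summed to 183, 142 and 149. Only Nkg7 of these was past the minimum, at 6.50, 5.97 and 5.88, and it weighs most in that sum. The 4 erythroid markers with a symbol summed to 101, 88.7 and 101, and the 4 B cell markers to 98.0, 92.9 and 97.1. The sums add signals of unlike probe sets, so genes of high signal weigh most in them. Pf4, at 9.05, 9.26 and 9.51, had the highest signal of the megakaryocyte list and weighs most in its sum. Of the 5 megakaryocyte markers, 2 were above 0 at 2.5 Gy (median −0.00) and 4 at 0.02 Gy (median 0.21). Within the granulocyte and monocyte list, S100a8 was at 5.57, 6.87 and 6.81 and S100a9 at 6.82, 7.94 and 8.38. These 2 genes had the largest differences of the list at both doses and weigh most in the rise of its sum. Other genes of that list differed less at 2.5 Gy or were lower than unirradiated, at 0.70 for Mpo, 0.01 for Itgam, −0.06 for Prtn3 and −0.20 for Ctsg, and Ly6g was below the minimum on average. In 0.02 Gy minus unirradiated Elane was at 0.94 and Itgam at 0.42. Mpo was at 0.16 there, Prtn3 at 0.07, Ctsg at −0.07 and Csf1r at −0.27. The part of other cells in the values of the members was not tested, and in bulk RNA a change in the mix of cells and a change in RNA per cell cannot be told apart.

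The second comparison asked about the low dose. Of the 66 members, 48 were above 0 in 0.02 Gy minus unirradiated (72.7%) and 18 below, against 54.2% above 0 among all genes and 68.2% among genes weighted to the same deciles, with a median of 0.19 (1.14-fold), against 0.04 for all genes. After subtraction of the median of genes in the same decile of signal the median was 0.04, and it was 0.02 after quantile normalization and after loess. At least 1.5-fold higher were 5 members (7.58%), against 7.5% of all genes and 11.4% of genes weighted to the same deciles, and 2 were at least 1.5-fold lower, against 4.72%. At least 2-fold higher was 1 member, against 1.33% of all genes, and 1 was at least 2-fold lower, against 1.14%. In either direction 7 were 1.5-fold apart (10.6%), against 12.2%, and 2 were 2-fold apart, against 2.47%. These shares are near those of all genes. Both dose comparisons use the same unirradiated array, so a value that is unusual on it enters both.

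The third comparison set the doses against each other without the unirradiated array. In 2.5 Gy minus 0.02 Gy, 30 members were above 0 and 36 below, with a median of −0.05, against −0.00 for all genes. At least 1.5-fold higher were 6 members, against 5.74% of all genes, and 3 were at least 1.5-fold lower, against 5.67%. At least 2-fold higher was 1 member, against 1.44%, and 0 were at least 2-fold lower, against 1.06%. In either direction 9 were 1.5-fold apart (13.6%), against 11.4%, and 1 was 2-fold apart, against 2.5%. The median was −0.01 under quantile normalization and under loess.

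**Figure D2:**
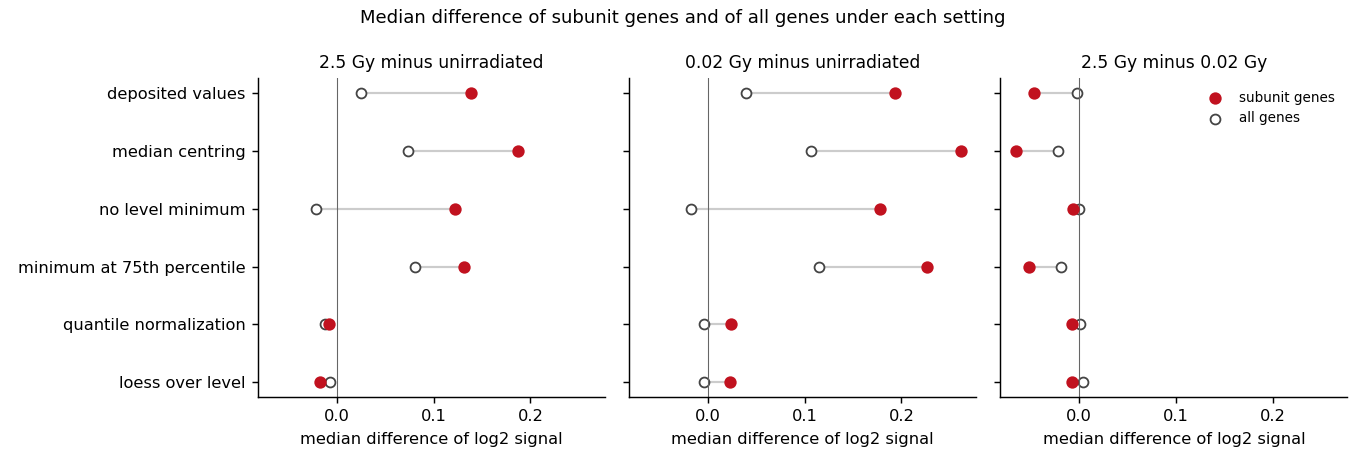
Median difference of log2 signal (x axis) of the members (filled) and of all genes (open) under each setting (rows) in the 3 comparisons (panels). In both comparisons with the unirradiated array the members' medians of 0.14 and 0.19 drop to between −0.02 and 0.02 after quantile normalization or loess.

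By complex, medians of 2.5 Gy minus unirradiated were 0.06 for complex I (32 members past the minimum), 0.17 for complex II (4), 0.15 for complex III (7), 0.16 for complex IV (11) and 0.18 for complex V (12). For 0.02 Gy minus unirradiated they were 0.24, 0.10, 0.33, 0.18 and 0.17 in the same order of complexes. Complex V was the most even set at the low dose: 11 of its 12 members were above 0 (91.7%), with the lowest at −0.05 and the highest at 0.56. Among all genes 54.2% were above 0, and 68.2% among genes weighted to the deciles of the 66 members. The low-dose median of complex V became −0.0304 after quantile normalization and −0.0479 after loess. Complex I was the widest, between −1.19 and 1.09. Relative to genes of the same decile, complex III was at 0.25 on the 0.02 Gy array and 0.09 on the 2.5 Gy array. In the same order of doses complex IV was at 0.08 and 0.13, complex V at −0.03 and 0.07, complex I at 0.04 and −0.08, and complex II at −0.04 and 0.02.

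**Figure D3:**
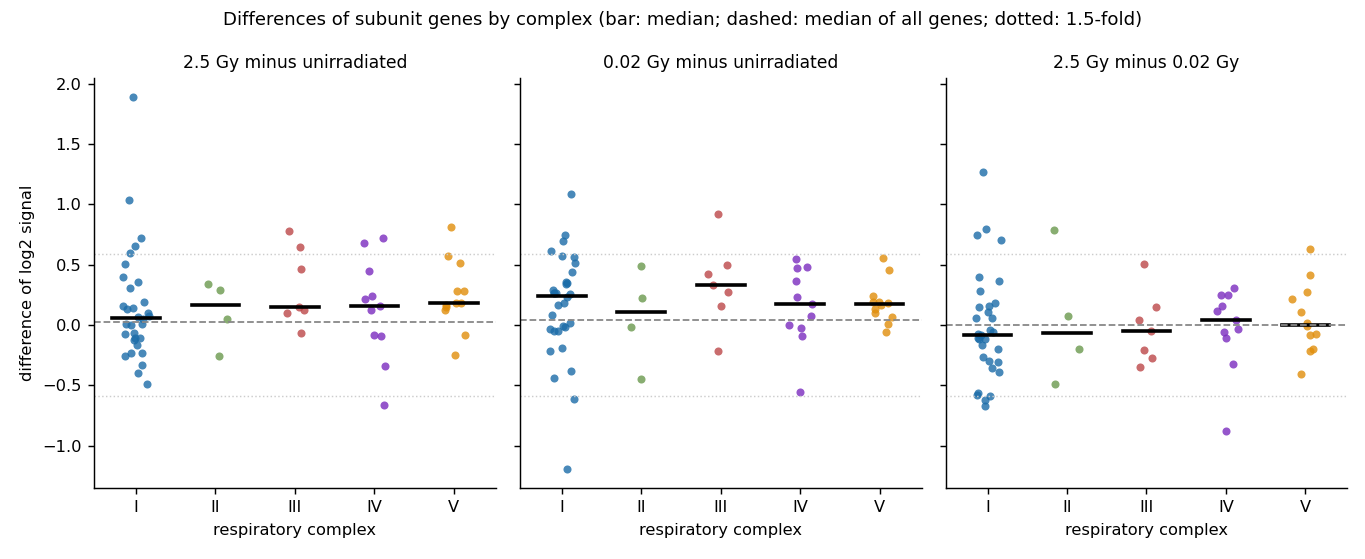
Differences of log2 signal (y axis) of the 66 members past the level minimum by complex (x axis), in 2.5 Gy minus unirradiated, 0.02 Gy minus unirradiated and 2.5 Gy minus 0.02 Gy (panels). Bars are medians per complex, the dashed line is the median of all genes and dotted lines mark 1.5-fold. The medians lie between −0.08 and 0.33, and single complex I genes reach −1.19 and 1.89.

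In all, 18 of the 66 members past the minimum were at least 1.5-fold apart in any comparison (27.3%), against 22.4% of all genes. The other 48 had ranges over the 3 arrays of 0.05 to 0.58.

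**Figure D4:**
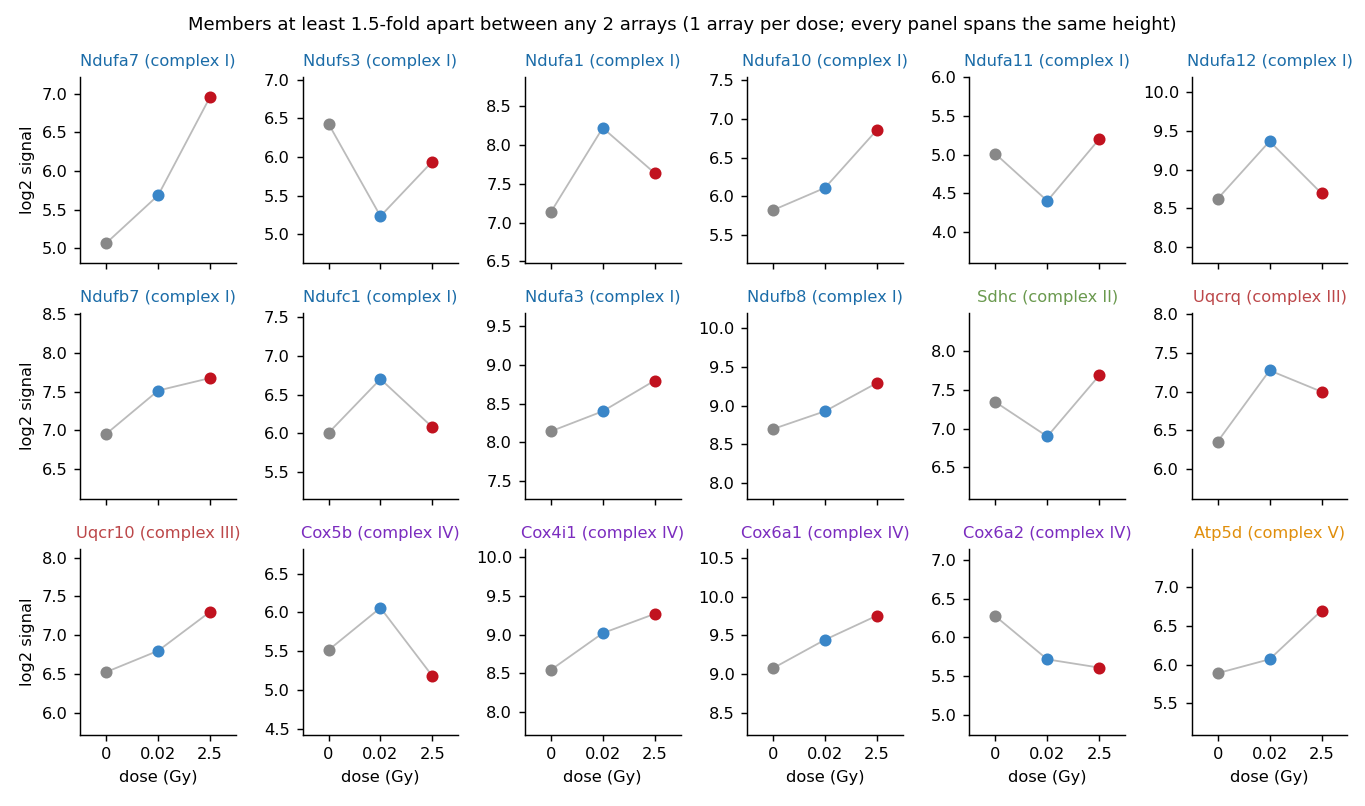
Log2 signal (y axis) of the 18 members at least 1.5-fold apart in any comparison, on the arrays of 0, 0.02 and 2.5 Gy (x axis), 1 array per dose. Each panel spans the same height. Ndufa7 is highest (6.96) at 2.5 Gy, Ndufs3 is lowest (5.23) at 0.02 Gy, and Ndufa1 is highest (8.22) at 0.02 Gy.

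In complex I, the catalytic core is made of the NADH-binding and iron-sulfur subunits. Ndufv1, which binds NADH and the flavin, was at 6.60, 6.41 and 6.37 (unirradiated, 0.02 Gy, 2.5 Gy). Ndufv2, an iron-sulfur subunit beside it, was at 5.98, 5.98 and 6.13. Ndufs1, the largest iron-sulfur subunit, was at 4.68, 4.65 and 4.44. These 3 core genes had ranges over the arrays of at most 0.24. Other genes for the NADH-binding module ranged more widely, at 0.44 for Ndufv3 (6.77, 6.33 and 6.52) and 0.56 for Ndufs4 (6.84, 7.01 and 6.44). Of the genes for the arm that reduces ubiquinone, Ndufs7 was at 6.43, 6.79 and 6.48 and Ndufs8 at 5.68, 6.02 and 6.08.

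Ndufs3, a core subunit of the ubiquinone-reducing arm, stood apart from these. It was at 6.43 unirradiated, 5.23 at 0.02 Gy and 5.94 at 2.5 Gy. The low-dose array held the lowest value, with 0.02 Gy minus unirradiated at −1.19 and 2.5 Gy minus unirradiated at −0.49. After loess the low-dose difference was −1.27, and after quantile normalization −1.29. Among the 66 members past the minimum, no other was at least 2-fold lower in any comparison of the deposited values.

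Accessory subunits of complex I do not carry electrons but are needed for its assembly and stability. Ndufa7, an accessory subunit of the matrix arm, was at 5.07, 5.69 and 6.96. Its value was higher at each dose step, with 2.5 Gy minus unirradiated at 1.89 (rank 15 from the top of 11593 genes), 2.5 Gy minus 0.02 Gy at 1.27 and 0.02 Gy minus unirradiated at 0.62. The high-dose difference was 1.86 after quantile normalization and 1.83 after loess.

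Ndufa10, an accessory subunit of the membrane arm that resembles nucleoside kinases, was at 5.82, 6.11 and 6.86. Its difference of 2.5 Gy minus unirradiated was 1.04, which became 0.95 after quantile normalization and 0.94 after loess, below 2-fold. Most of the step lay between the irradiated arrays, at 0.75 in 2.5 Gy minus 0.02 Gy.

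Ndufa1, an X-linked gene for a small membrane-arm subunit, was at 7.13, 8.22 and 7.64. The low-dose array held its highest value, 1.09 above the unirradiated array, and this became 0.91 after quantile normalization and 0.86 after loess. Ndufa12 (8.62, 9.37 and 8.69) and Ndufc1 (6.01, 6.70 and 6.08), accessory genes too, were also highest at 0.02 Gy, and their 2.5 Gy and unirradiated values differed by 0.07 each. Neither stayed 1.5-fold higher at 0.02 Gy than unirradiated after scaling: Ndufa12 was at 0.45 after quantile normalization and 0.50 after loess, and Ndufc1 at 0.58 and 0.57. RefSeq lists a pseudogene of Ndufa12, so its probe set may also read that copy. Ndufa11, which stabilises the membrane arm, was the reverse, at 5.01, 4.40 and 5.20. Its low-dose difference of −0.61 became −0.57 under both scalings, just short of 1.5-fold.

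Other accessory genes were highest at 2.5 Gy. Ndufa3 was at 8.14, 8.40 and 8.80, Ndufb7 at 6.95, 7.51 and 7.67, and Ndufb8 at 8.70, 8.93 and 9.29. All 3 encode small proteins of the membrane arm. They differed by 0.59 to 0.72 in 2.5 Gy minus unirradiated, and none of these 3 stayed at 1.5-fold after loess or quantile normalization. By contrast Ndufb2 was at 8.34, 8.42 and 8.35, and Ndufa6 at 8.18, 8.13 and 8.18. Ndufa4, named as a complex I gene but now known to encode a protein of complex IV, was at 8.55, 8.57 and 8.68.

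Complex II has 4 subunits, all nuclear-encoded, and also works in the citric acid cycle. Sdha, the flavoprotein that oxidises succinate, was at 6.67, 7.16 and 6.96, and Sdhb, the iron-sulfur subunit, at 6.98, 6.97 and 7.04. Sdhc, one of the membrane anchors, was at 7.34, 6.90 and 7.69, and Sdhd, the other anchor, at 5.79, 6.02 and 5.53. The anchors thus ran in opposite directions over the arrays: Sdhc was lowest and Sdhd highest at 0.02 Gy. Sdhc was 0.79 higher at 2.5 Gy than at 0.02 Gy, while Sdhd was at −0.48.

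In complex III, the core proteins Uqcrc1 (5.01, 5.43 and 5.47) and Uqcrc2 (7.11, 7.27 and 7.22) and the Rieske iron-sulfur protein gene Uqcrfs1 (5.63, 5.96 and 5.75) stayed within 1.5-fold. Among the genes for small subunits, Uqcrq was at 6.36, 7.27 and 7.0, with 0.02 Gy minus unirradiated at 0.92 and 2.5 Gy minus unirradiated at 0.64. The high-dose difference was 0.51 after quantile normalization and 0.50 after loess, below 1.5-fold, whereas the low-dose difference stayed past it. Uqcr10 was at 6.52, 6.80 and 7.30, a difference of 0.78 at the high dose. Uqcrh, the hinge protein gene, was at 7.85, 8.35 and 8.01, and RefSeq lists pseudogenes of it. Uqcr11 was lowest at 0.02 Gy (7.93, 7.71 and 7.86).

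Complex IV has tissue isoforms for several subunits. Cox4i1, the general form of subunit 4, was at 8.54, 9.02 and 9.27, and Cox4i2, a form known from lung and hypoxia, at 4.55, 4.62 and 4.78. Cox6a1, the general form of subunit 6a, was at 9.07, 9.44 and 9.75, and Cox6a2, the heart and muscle form, at 6.27, 5.72 and 5.61. The 6a isoforms ran in opposite directions, with 2.5 Gy minus unirradiated at 0.68 for Cox6a1 and −0.66 for Cox6a2. Cox4i1 was 0.72 higher at 2.5 Gy than unirradiated; neither Cox4i1 nor Cox6a1 stayed at 1.5-fold after loess, whereas Cox6a2 did.

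The other general forms differed less. Cox6b1 (6.42, 6.42 and 6.54), Cox7a2 (5.81, 5.72 and 5.97) and Cox8a (7.07, 7.55 and 7.52) stayed within 1.5-fold, as did Cox6b2 (7.69, 7.66 and 7.60), which is known from testis. Cox5a was at 7.90, 8.13 and 7.81. Cox5b, its partner as a nuclear subunit, was at 5.51, 6.06 and 5.18, which made 2.5 Gy minus 0.02 Gy −0.88, the lowest among the 66 members past the minimum in that comparison. RefSeq lists a pseudogene of Cox5b.

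Members below the level minimum were mainly tissue isoforms. The muscle form Cox7a1 (3.94, 3.51 and 3.50), Cox7b2 (2.72, 2.60 and 2.63), Cox8b (3.36, 3.0 and 3.36) and Cox8c (3.80, 3.58 and 3.65) were below it on every array, as was Ndufa4l2 (3.88, 3.76 and 4.0). Other members below it are not tissue isoforms. Cox7a2l, a factor for joining complexes III and IV, was at 4.80, 3.90 and 4.54. Cox7b, an X-linked subunit gene, was at 4.35, 2.65 and 3.09, and Ndufb11, an X-linked complex I gene, at 2.19, 4.03 and 3.89. In both of these X-linked genes the unirradiated array stood apart from the other two, in opposite directions. Signal over background is not known for these arrays, so no fold is given below the minimum.

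In complex V, Atp5a1 and Atp5b encode the alpha and beta subunits of the catalytic head. Atp5a1 was at 7.69, 7.76 and 7.98, and Atp5b at 6.82, 7.28 and 7.39. Atp5c1, the gamma subunit that turns inside the head, was at 6.13, 6.08 and 5.88, so it was lowest at 2.5 Gy where the others of the head were highest. RefSeq lists a pseudogene of Atp5c1. Atp5d, the delta subunit of the central stalk, was at 5.89, 6.07 and 6.70. Its high-dose difference of 0.81 was the largest of complex V and stayed past 1.5-fold after quantile normalization and loess.

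Atp5e, the epsilon subunit of the same stalk, was at 9.66, 9.67 and 9.94. Atp5g3, a gene for the proton-carrying c ring, was at 7.81, 8.05 and 7.97. Of the peripheral stalk, Atp5pb was at 6.51, 7.07 and 6.66, Atp5o at 7.75, 7.89 and 7.67, and Atp5j at 5.25, 5.45 and 5.38. The membrane subunit genes Atp5k (9.71, 9.80 and 10.22), Atp5md (7.27, 7.47 and 7.46) and Atp5mpl (8.69, 8.86 and 8.88) were lowest on the unirradiated array. Atp5k and Atp5pb have pseudogenes in RefSeq.

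Genes around the chain were read from lists of known members. Assembly factors build the complexes but are not part of them. Past the minimum were 38, which are 11 for complex I, 3 for complex II, 4 for complex III, 16 for complex IV and 4 for complex V. Their median was −0.03 in 2.5 Gy minus unirradiated, 0.15 in 0.02 Gy minus unirradiated and −0.12 in 2.5 Gy minus 0.02 Gy, where 25 of 38 were below 0. In 2.5 Gy minus unirradiated 0 of the 38 were at least 1.5-fold higher or lower, against 6.07% and 3.44% of all genes. In 0.02 Gy minus unirradiated 4 were 1.5-fold higher, against 7.5%. In 2.5 Gy minus 0.02 Gy 4 were at least 1.5-fold lower, against 5.67%.

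Single assembly genes were highest at 0.02 Gy. Uqcc2, an assembly factor of complex III, was at 4.78, 5.66 and 4.64, with 2.5 Gy minus 0.02 Gy at −1.02. Sco2, which delivers copper to complex IV, was at 5.87, 6.56 and 5.70, Cmc1, an assembly factor of complex IV, at 6.04, 6.82 and 6.44, and Cox20 at 7.30, 7.52 and 6.78. Sdhaf4 of complex II was at 5.26, 5.92 and 5.43. Sdhaf1 and Ecsit, an assembly factor of complex I, were lowest at that dose, at 5.48, 5.26 and 5.84 and at 4.81, 4.38 and 4.91, as was Bcs1l of complex III, at 5.55, 4.98 and 5.37. Ndufaf7 (4.58, 5.15 and 4.58), Ndufaf5 (5.02, 5.48 and 4.99), Ttc19 (4.67, 5.14 and 4.80), Sdhaf2 (5.46, 5.51 and 5.43), Atpaf1 (5.45, 5.60 and 5.52) and Atpaf2 (5.45, 5.79 and 5.42) were also highest at 0.02 Gy, all within 1.5-fold, and Tmem70 was at 5.80, 5.63 and 5.95.

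Of the electron carriers and the subunits with other symbols, 5 of 7 were past the minimum, with medians of −0.02 in 2.5 Gy minus unirradiated and −0.09 in 0.02 Gy minus unirradiated. Cyc1, the cytochrome c1 of complex III, was at 5.35, 5.11 and 5.83, and 2.5 Gy minus 0.02 Gy was 0.72. Etfa, which feeds electrons from fatty acid oxidation, was at 7.19, 6.64 and 7.10, and Ndufab1, the acyl carrier protein of complex I, at 5.93, 6.08 and 5.67. Cycs, which encodes cytochrome c, was below the minimum (4.46, 4.18 and 4.26). Of the 13 listed symbols of subunits encoded by the mitochondrial genome, 0 were among the genes with a symbol, so these subunits were not analysed here.

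Citric acid cycle genes, which supply the chain with NADH and succinate, had a median of 0.18 in 2.5 Gy minus unirradiated and 0.28 in 0.02 Gy minus unirradiated over 11 members past the minimum. At least 1.5-fold higher were 2 of the 11 at 2.5 Gy (all genes 6.07%) and 3 of the 11 at 0.02 Gy (all genes 7.5%). The medians and counts of this list were not set against genes of like signal. Ogdh, of the oxoglutarate dehydrogenase complex, was at 5.32, 6.58 and 6.21, 2-fold or more higher at 0.02 Gy than unirradiated (1.26). Suclg2, of succinyl-CoA ligase, was at 5.67, 6.52 and 6.33, and the fumarase gene Fh1 at 5.45, 6.13 and 5.64.

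Regulators of mitochondrial biogenesis had 12 of 15 members past the minimum, with medians of −0.04 at 2.5 Gy and −0.09 at 0.02 Gy against unirradiated, and 0 were 1.5-fold apart in either direction, against 6.07% higher and 3.44% lower at 2.5 Gy. Pprc1, a coactivator of NRF1, was at 5.16, 5.07 and 5.65, and Gabpb1, a partner of GABPA, at 5.30, 5.17 and 5.72. Polg, the mitochondrial DNA polymerase, was at 5.48, 4.99 and 4.97. The factors whose motifs were sought above stayed within 1.5-fold over the arrays. Nrf1 was at 5.71, 5.59 and 5.58, Gabpa at 5.76, 6.09 and 6.12 and Yy1 at 6.39, 6.41 and 6.54. Gabpa was 0.33 higher at 0.02 Gy and 0.36 higher at 2.5 Gy than unirradiated. Ppargc1a and Tfam were below the minimum.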

How the data were processed

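Per the labels' protocols, biotinylated cDNA was prepared with an Affymetrix Whole Transcript kit; there are 3 arrays, 1 per dose. The deposited values are 1 log2 value per probe set and array; the log2 scale was read from the values. Partek is named without version or role, per the submitters' processing notes, and how background, normalization and summarisation were handled is not given in the sources used here. Symbols came from the platform annotation: 23185 probe sets had 1, 0 had several and 2021 had none, and those without stayed out. Differences were taken gene by gene (Python 3.11.15, pandas 2.3.3) and counted at 1.5-fold and 2-fold, with no test. Genes of like level were those in the same of 10 bins of mean signal among genes past the minimum. Counting and scaling steps were checked on simulated data. Alternatives were quantile normalization, median centring, loess (span 0.3; statsmodels 0.14.6), dropping the level minimum or raising it to the 75th percentile, 3-fold and means. The members, lists and rules were chosen with earlier results of these data known. Values are given for members at least 1.5-fold apart in any comparison, for listed catalytic subunits and isoforms, and for the 3 genes of each pathway list (not of the marker lists) with the widest range; members and genes named beyond that were chosen after their values were seen. The planned value of 1 catalytic complex I gene is not reported here.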

Additional observations from a re-analysis of the deposited data

How the results depend on the processing

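No paired analysis was possible because there is a single array at every dose and nothing was tested. Medians are called moved when they shifted by at least 0.1, and counts when they changed by more than 1.5 times. Under the alternatives 123 medians and counts did not move and 42 did. For the 18 named members, 115 differences shifted by less than 0.1 and 47 by more, and none past 1.5-fold changed sign. The cause of shifts under quantile normalization and loess was not tested. Medians of members in 2.5 Gy minus unirradiated were −0.00816 after quantile normalization and −0.0177 after loess, and in 0.02 Gy minus unirradiated 0.0239 and 0.0229. For complex I they were −0.124 and −0.116 at 2.5 Gy and 0.0239 and 0.0229 at 0.02 Gy. For complex II they were 0.0152 and 0.0220 at 2.5 Gy and −0.0325 and −0.0232 at 0.02 Gy, and for complex V 0.00387 and 0.0313 at 2.5 Gy and −0.0304 and −0.0479 at 0.02 Gy. Without a level minimum, which adds 6 dim complex IV genes, the median of complex IV was −0.0845 at 2.5 Gy and −0.0265 at 0.02 Gy. Members at least 1.5-fold higher at 2.5 Gy numbered 4 after quantile normalization (all genes 5.0%) and 4 after loess (4.87%). At 0.02 Gy they numbered 3 (all genes 5.77%) and 2 (5.59%), and 9 after median centring (10.1%). Members 1.5-fold lower at 0.02 Gy numbered 5 after quantile normalization (all genes 5.58%), 5 after loess (5.37%), 1 after median centring (3.55%), 4 without a minimum (5.43%) and 1 at the 75th percentile (3.74%). At 2.5 Gy they numbered 2 after quantile normalization (4.24%) and 2 without a minimum (4.12%), and in 2.5 Gy minus 0.02 Gy 5 after median centring (6.06%). Members 2-fold higher at 2.5 Gy numbered 1 after quantile normalization (0.975%) and 1 after loess (0.992%), and at 0.02 Gy 0 under both (1.09% and 1.06%) and 2 without a minimum (1.12%). Members 2-fold lower without a minimum were 2 at 0.02 Gy (1.17%) and 1 at 2.5 Gy (0.638%). At 3-fold, 1 member was higher at 2.5 Gy and 0 in the other counts. Leaving out the 6 members with a pseudogene, and asking for the minimum on all 3 arrays, both chosen after seeing the data, gave medians of 0.14 and 0.13 at 2.5 Gy and 0.19 and 0.23 at 0.02 Gy. A pseudogene was counted only where RefSeq names it after the gene, so any copy under another name was not covered. The files hold no background signal, so how far dim members lie above it was not tested.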

Other observations

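The 3 pseudogenes whose symbols begin like those of the subunit genes were not counted as members. Ndufs5-ps was at 5.23, 5.22 and 5.11 (unirradiated, 0.02 Gy, 2.5 Gy), past the level minimum on every array. Uqcrh-ps1 was at 4.15, 4.28 and 3.88 and Atp5c1-ps at 2.26, 2.76 and 2.68, both below it on every array. The gene Atp5c1 itself was lowest at 2.5 Gy, at 5.88.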
